A study of Mus musculus with 15 samples.

Results

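The genes described here were at the detection floor in wild-type (WT) zygotes, were clearly transcribed in WT 2-cell embryos and had a similar mean level in 2-cell embryos that lacked maternal *Usp16* (cKO). They were chosen by their FPKM (fragments per kilobase of transcript, scaled to the mapped fragments of a library), with both WT zygote values equal to 1, both WT 2-cell values at least 10, and a ratio of the cKO to the WT 2-cell mean between 0.67 and 1.5. Symbols of the *Zscan4* and *Zfp* families were left out. This rule selected 166 of the 14392 listed genes, called kept genes below. In all, 526 genes outside those families met the WT conditions, and the others had a cKO mean more than 3-fold lower (104 lost genes), lower by less than that (163 reduced genes) or above the upper limit (93 raised genes). The WT zygote, WT 2-cell and cKO 2-cell values were therefore used in the choice and are given as a description. The cKO zygote libraries were the only ones that the choice did not use.

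The study asked how loss of the H2A deubiquitinase USP16 from the oocyte affects the start of transcription in the mouse embryo. The RNA-seq data comprised 8 Smart-seq2 libraries from pools of 10 embryos, 2 for each genotype at the zygote and the 2-cell stage. The cKO embryos came from *Usp16 fl/fl;Gdf9-Cre* mothers, in which *Gdf9-Cre* deletes the floxed gene in oocytes, mated with WT males, so they lacked the maternal allele and carried an intact paternal one. WT embryos came from WT mothers and males, all mice had the C57BL/6 background, and embryos were obtained after superovulation of pubertal females. Nothing in the sources says whether the 2 libraries of a group came from separate collections, so the p-values below measure only the spread between these libraries. ChIP-seq of H2AK119ub1, also part of the series, was not analysed here.

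In the mouse, the zygote first lives on RNA and protein stored in the oocyte, and the major wave of zygotic genome activation (ZGA) takes place at the 2-cell stage. That wave brings up genes that every growing cell needs, such as those for ribosome assembly, together with short-lived transcripts typical of this stage. Polycomb repressive complex PRC1 adds ubiquitin to histone H2A, a mark found at many silent promoters, and USP16 takes it off.

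Only FPKM were used, without counts of reads. Sequencing depth, and with it the counting error of low values, is therefore unknown. Values under 1 had been set to 1. One library stood apart in its total. The FPKM sum was 770989 in cKO 2-cell replicate 2, compared with 582343 in cKO 2-cell replicate 1 and with 577483 and 547752 in the WT 2-cell libraries. The zygote libraries summed to between 557515 and 593317. At the floor were 1642 and 1716 of all genes in the WT 2-cell libraries and 3684 and 4240 in the cKO 2-cell libraries.

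*Usp16* was read in every library to check the labels. Its FPKM was 184 and 187 in WT zygotes and 16.8 and 21.99 in cKO zygotes. It was 168.4 and 183 in WT 2-cell embryos and 167.7 and 84.8 in cKO 2-cell embryos. Both cKO zygote libraries were thus far below both WT ones, while at the 2-cell stage cKO replicate 1 nearly reached the lower WT value and replicate 2 did not. On the log2(FPKM + 1) scale the zygote difference was -3.21 (SE 0.34), with an adjusted p of 0.191 from limma with Benjamini-Hochberg adjustment over all genes. Exact permutation of 4 libraries reaches a p of 0.333 at best and was not used.

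In cKO zygotes, most kept genes were at the floor. Of the 166, 139 were at the floor in both cKO libraries, 27 (16.3%) exceeded it in at least 1 and 9 (5.42%) in both. Over the 4206 genes for which both WT zygote values were 1, the shares were 10.4% in at least 1 and 3.38% in both cKO libraries. The share in at least 1 was 9.62% of lost, 13.5% of reduced and 11.8% of raised genes. The count of 9 was not stable, being 2 after median-ratio scaling and 0 at a floor of 2 FPKM. No kept gene had a cKO zygote mean above 2 FPKM, and only 17 of the 4206 genes did. The highest single value of a kept gene was 1.97, in replicate 1, for *Mcts2*, which was at 1 in replicate 2. It is an intronless translation factor gene expressed from the paternal allele in mouse tissues. *Lyrm2*, a mitochondrial protein gene, was at 1.75 and 1.55, and *Pnp2*, a purine nucleoside phosphorylase gene, at 1.81 and 1.35. *Rbp7*, which encodes a cellular retinol-binding protein, was at 1.85 and 1, and *Dhps*, the enzyme that starts hypusine synthesis on eIF5A, at 1.74 and 1. Only *Lyrm2* and *Pnp2* of these 5 were above the floor in both libraries. Without cKO zygote replicate 1 the count above the floor was 14, and without replicate 2 it was 22, since each remaining library then stood alone.

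limma called 0 kept genes different between cKO and WT zygotes, and 0 had an unadjusted p under 0.05. Among all genes it called 0.0208%, with 324 upward and 84 downward before adjustment. The means of 0 kept genes were over 3-fold apart, against 0.153% of all genes. Values under 1 FPKM are hidden by the floor, so a difference among them could not have been seen.

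From cKO zygotes to cKO 2-cell embryos, the mean of all 166 kept genes went up more than 3-fold, with a lowest fold of 6.96 and a median of 22.6. Among all genes 22.8% did so. For 159 kept genes the fold was above 10, as it was for 1194 of all 14392 genes. limma called 166 of 166 higher, compared with 24.6% of all genes. These folds are lower bounds wherever the zygote value was at the floor, and since the rule fixed the cKO 2-cell means, they are a description.

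The kept genes spanned a range of levels. Their WT 2-cell means ran from 10.5 to 221 FPKM with a median of 23.01, 36 of them were at 50 FPKM or more and 71 below 20. As a share of the FPKM sum, the 166 genes made up between 0.0280% and 0.0298% of each zygote library, all of it at or near the floor. At the 2-cell stage they made up 1.09% and 1.14% in WT and 1.03% and 0.886% in cKO, the lowest being the library with the large total. A change in the number of embryos that carry a transcript and a change in RNA per embryo cannot be told apart in these pools.

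**Figure D1:**
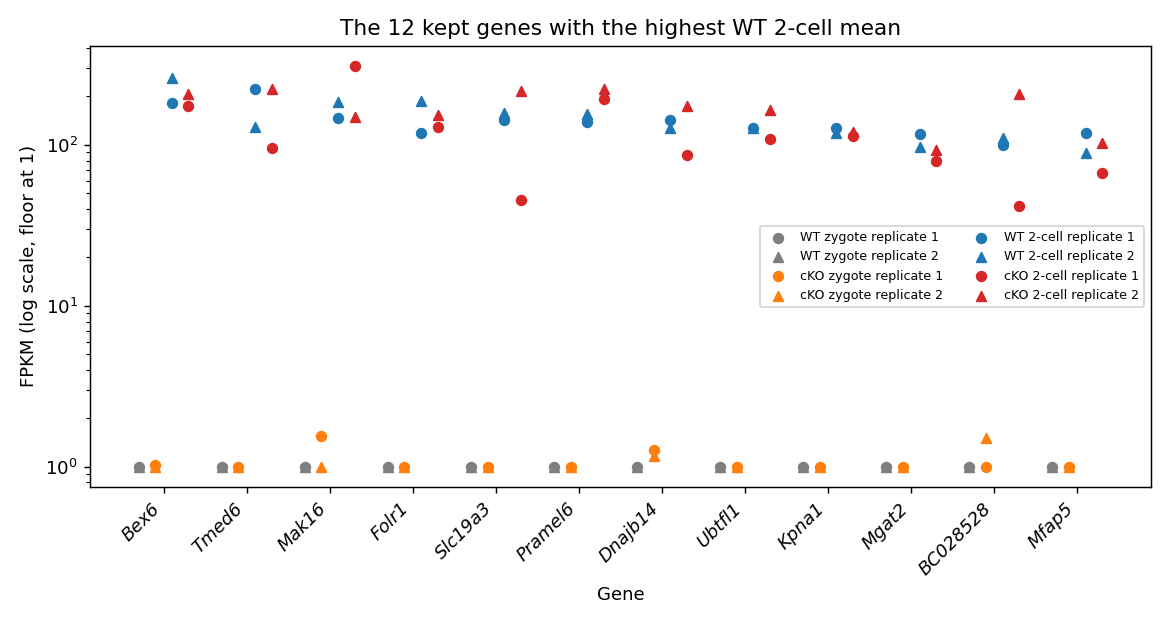
FPKM on a log axis for the 12 kept genes with the highest WT 2-cell mean, 1 point per library and 8 points per gene. The zygote points lie between 1 and 1.55, and the 2-cell points between 41.8 and 309.

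The kept gene with the highest WT 2-cell mean was *Bex6*, a single-exon gene named for the brain-expressed X-linked family although it lies on chromosome 16. Its FPKM was 181 and 260.4 in WT and 175 and 208 in cKO 2-cell embryos, overlapping ranges. *Kpna1*, which encodes an importin alpha that carries proteins into the nucleus, was at 127 and 119 in WT and at 114 and 121 in cKO. The 4 values lay within 1.12-fold of each other. *Dnajb14*, a chaperone gene of the endoplasmic reticulum, was at 142 and 127 in WT and at 86.5 and 174 in cKO. The cKO libraries of *Dnajb14* fell on either side of both WT libraries, as did those of other kept genes. The rule held the cKO mean near the WT mean, so cKO libraries far apart tended to lie on either side of WT. The pattern itself is therefore a description.

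To describe which cKO library was the higher, each kept gene was placed by hand in 1 of 9 role classes. The values had been seen before, so the classes are a description with no test. Over all 166 kept genes, replicate 2 was the higher cKO library for 96 and replicate 1 for 70, whereas over all genes replicate 2 was higher for 4962 and replicate 1 for 6628. The median log2 ratio of replicate 2 to replicate 1 was 0.16 in kept genes and -0.18 over 9086 genes with every 2-cell value above 1. With median-ratio scaling these medians were 0.48 and 0.14, and with equal sums both were negative, at -0.24 and -0.58. Genes named below for their class, beyond those taken by the naming rule, were likewise chosen after their values were seen.

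Ribosome assembly formed a class of 9 kept genes. *Mak16*, needed for maturation of the large ribosomal subunit, was at 148 and 186 FPKM in WT and at 309 and 149 in cKO 2-cell embryos. *Nop16*, a nucleolar protein of the same pathway, was at 80.5 and 113 in WT and at 163 and 53.1 in cKO. For both genes cKO replicate 1 was the highest of the 4 libraries, and replicate 2 lay within or below the WT range. *Nol11*, a component of the complex that processes the small-subunit rRNA, was at 69.7 and 78.7 in WT and at 121 and 66.3 in cKO. *Rrs1*, which helps to bring the 5S particle into the large subunit, was at 41.3 and 47.2 in WT and at 57.7 and 22.6 in cKO. *Rrp12*, a factor of rRNA maturation and subunit export, was at 11.9 and 10.7 in WT and at 15.9 and 5.41 in cKO. In each of these 3 as well, replicate 1 was above and replicate 2 below both WT libraries. *Nop2*, an rRNA methyltransferase gene, did not share this, at 80.4 and 62.6 in WT and at 77.5 and 72.0 in cKO. Of the 9 genes, 8 were higher in replicate 1, and the median log2 ratio of replicate 2 to replicate 1 was -0.94. The ratio was also negative after median-ratio scaling (-0.63, 6 of 9) and after scaling to equal sums (-1.35, 9 of 9).

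A fixed list of ribosome assembly factors, which lacks 5 genes of this class, had 36 genes in the table. Of these, 4 were de novo 2-cell genes, and all 4 (*Nop16*, *Nop2*, *Rrp12* and *Rrs1*) were kept, as were 166 of the 526 de novo genes as a whole. Over the 36 genes the median ratio of the cKO to the WT 2-cell mean was 1.37, compared with 0.771 over all genes. Of the 36, 16 were above, 19 within and 1 below the limits of 0.67 and 1.5. Replicate 1 was the higher cKO library for 28 of 36, with a median log2 ratio of replicate 2 to replicate 1 of -0.40 that came to -0.09 after median-ratio scaling and -0.81 after scaling to equal sums. After these scalings the count was 20 and 32 of 36. Over the 9086 genes with every 2-cell value above 1, the medians on the 3 scales were -0.18, 0.14 and -0.58. On the median-ratio scale those genes thus had the opposite sign to the list.

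The machinery of RNA polymerases I, II and III gave another 9 kept genes. *Ubtfl1*, a relative of the polymerase I factor UBF that is restricted to early embryos, was at 128 in both WT 2-cell libraries and at 109 and 165 in cKO. *Ubtf*, which encodes UBF itself, was at 24.4 and 20.4 in WT and at 30.5 and 16.3 in cKO. *Polr3e*, a subunit of polymerase III, was at 12.8 and 11.0 in WT and at 23.5 and 4.97 in cKO, a 4.72-fold gap between the cKO libraries. *Ubtf* and *Polr3e* thus followed the ribosome assembly genes and *Ubtfl1* the opposite order. *Rprd1b*, which binds the tail of polymerase II, was at 28.7 and 31.7 in WT and at 67.1 and 19.5 in cKO. *Aff4*, the scaffold of the super elongation complex, was at 14.1 and 12.4 in WT and at 13.3 and 12.5 in cKO, 1 of the 5 tightest kept genes. In this class 8 of 9 genes were higher in cKO replicate 1, with a median log2 ratio of -0.90 that was -0.59 after median-ratio scaling and -1.31 after scaling to equal sums.

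Transcription factors and chromatin proteins numbered 12. *Gabpa*, which encodes the DNA-binding subunit of the ETS factor GABP, was at 91.2 and 89.2 in WT and at 138 and 131 in cKO 2-cell embryos. Both cKO libraries were above both WT libraries, and close to each other. *Cited1*, a transcriptional coactivator gene on the X chromosome, was at 101 and 68.3 in WT and at 88.6 and 58.5 in cKO. *Kdm3a*, an H3K9 demethylase gene, was at 31.7 and 33.0 in WT and at 27.5 and 19.5 in cKO, with both cKO libraries below WT. *Spz1*, a basic helix-loop-helix factor gene from the list of 2-cell transcripts, was at 20.9 and 27.7 in WT and at 25.5 and 14.8 in cKO. All 12 genes had cKO libraries within 2-fold of each other, and 10 were higher in replicate 1. The median log2 ratio was -0.55, or -0.23 after median-ratio scaling and -0.95 after scaling to equal sums.

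Genes of RNA modification, processing and translation numbered 19. *Pus1*, a pseudouridine synthase gene, was at 39.3 and 33.8 in WT and at 62.4 and 29.8 in cKO. *Mcts2* went the other way, at 102 and 91.1 in WT and at 63.9 and 156 in cKO. *Dph2*, which acts in diphthamide synthesis on elongation factor 2, was among the tightest, at 19.9 and 23.2 in WT and at 21.3 and 21.5 in cKO. *Eif2s3y*, a Y-linked gene for a subunit of initiation factor 2, was at 14.1 and 15.6 in WT and at 28.8 and 8.55 in cKO, and the share of male embryos in each pool was not tested. Of the 19 genes, 11 were higher in replicate 1, and the median log2 ratio of -0.21 changed sign to 0.11 after median-ratio scaling and was -0.61 after scaling to equal sums.

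Membrane, secreted and transport proteins, a class of 23, had the opposite order. *Slc19a3*, a thiamine transporter gene, was at 143 and 157 in WT and at 45.5 and 216 in cKO 2-cell embryos. *Tmed6*, a cargo receptor gene of the early secretory pathway, was at 221 and 128 in WT and at 95.4 and 223 in cKO. *Lgals1*, which encodes galectin-1, was at 65.4 and 42.2 in WT and at 16.7 and 69.5 in cKO. In all 3 the lowest of the 4 libraries was cKO replicate 1 and the highest was cKO replicate 2. *Mfap5*, a microfibril protein gene, was at 118 and 89.1 in WT and at 67.0 and 103 in cKO. *Folr1*, the folate receptor alpha gene, was at 119 and 188 in WT and at 129.7 and 153 in cKO, within the WT range. *Epcam*, an epithelial adhesion gene, was at 44.4 and 82.4 in WT and at 75.2 and 114 in cKO, close to the upper limit with a ratio of means of 1.49. Replicate 2 was the higher cKO library for 20 of the 23 genes, and more than 2-fold higher for 11. The median log2 ratio of replicate 2 to replicate 1 was 0.96, and was 1.27 after median-ratio scaling and 0.55 after scaling to equal sums.

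Metabolism and glycosylation also had 23 genes. *Mgat2*, a Golgi enzyme gene of N-glycan branching, was at 117 and 97.0 in WT and at 79.8 and 92.7 in cKO. *Pi4k2b*, a phosphatidylinositol 4-kinase gene, had the narrowest spread of all kept genes, at 18.4 and 18.7 in WT and at 19.9 and 20.5 in cKO, within 1.11-fold. *Hpdl*, an intronless dioxygenase-like gene, was at 25.3 and 23.9 in WT and at 27.4 and 23.8 in cKO. *Agmat*, an agmatinase gene, showed the opposite of a tight spread, at 35.03 and 25.2 in WT and at 16.5 and 48.6 in cKO. *Gart*, which encodes a purine synthesis enzyme, was at 17.96 and 14.9 in WT and at 20.8 and 7.87 in cKO. Replicate 2 was higher for 17 of 23, and the median log2 ratio of 0.31 was 0.63 after median-ratio scaling but changed sign to -0.09 after scaling to equal sums.

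Innate immune genes numbered 7. *Ifi35*, an interferon-induced gene, was at 45.3 and 57.7 in WT and at 65.1 and 80.9 in cKO. *Ifitm1*, which encodes an interferon-induced membrane protein, was at 12.5 and 15.4 in WT and at 20.4 and 19.02 in cKO. *Psme1*, an activator subunit gene of the proteasome, was at 12.6 and 16.3 in WT and at 18.8 and 22.04 in cKO. For these 3 of the 7 genes both cKO libraries were above both WT libraries, while for *Ifitm2*, at 11.9 and 10.5 in WT and at 8.51 and 8.92 in cKO, both were below. Among all genes, both were above for 14.0% and both below for 43.4%. The 3 genes were named after their values were seen, so nothing is read from this count. All 7 had cKO libraries within 2-fold, and replicate 2 was higher for 6, for 7 after median-ratio scaling and for only 1 after scaling to equal sums. The median log2 ratio of replicate 2 to replicate 1 was 0.23, was 0.55 after median-ratio scaling and changed sign to -0.17 after scaling to equal sums.

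The *Pramel* family, leucine-rich repeat genes expressed in germ cells and early embryos, gave 4 kept genes. *Pramel6* was at 138 and 155 in WT and at 192 and 222 in cKO, both cKO libraries above WT. *Pramel5* was at 22.7 and 24.5 in WT and at 19.3 and 23.5 in cKO. *Gm13119*, whose coding transcript is near-identical to those of 6 other genes, so that its level is uncertain, was at 16.5 and 20.4 in WT and at 8.59 and 20.2 in cKO. The median log2 ratio of replicate 2 to replicate 1 over the 4 genes was 0.25, or 0.56 after median-ratio scaling, and changed sign to -0.16 after scaling to equal sums. The remaining 60 genes had another or no known role, with a median log2 ratio of 0.27 that was 0.58 after median-ratio scaling and changed sign to -0.14 after scaling to equal sums.

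**Figure D2:**
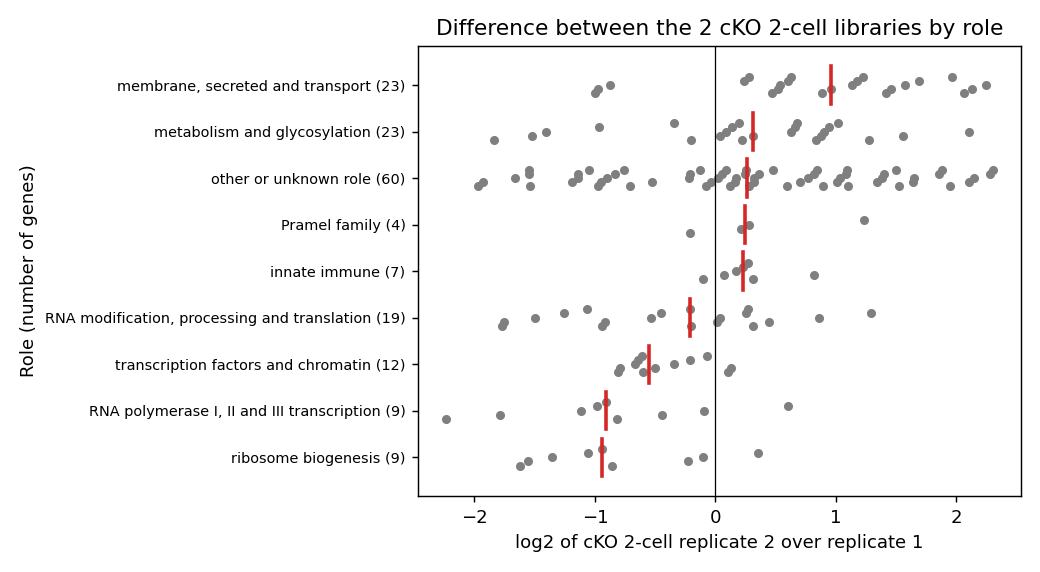
Difference between the 2 cKO 2-cell libraries of the 166 kept genes, as log2 of FPKM in replicate 2 over replicate 1 on the horizontal axis, by role class on the vertical axis, with 1 point per gene and a red bar at each median. Medians run from -0.94 for ribosome biogenesis to 0.96 for membrane, secreted and transport, and those of 5 classes (RNA modification, innate immune, *Pramel*, metabolism and other) change sign under one of the 2 other scalings.

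Over all 166 kept genes, the cKO 2-cell libraries were more than 3-fold apart for 24 (14.5%). Among all genes this share was 13.3%, and among the 5817 genes with both WT 2-cell values at least 10 it was 15.3%, so the kept genes were near the background. More than 2-fold apart were 61 (36.7%), against 35.5% of those 5817 genes. The WT 2-cell libraries were more than 3-fold apart for 0 kept genes and 1.38% of all genes. The median fold between replicates of the kept genes was 1.78 in cKO and 1.17 in WT. Of the 24 genes, replicate 2 was higher for 15 and replicate 1 for 9. Over all genes more than 3-fold apart, these counts were 798 and 1114. The largest fold of a kept gene, 4.94, belonged to *BC028528*, at 100.2 and 109.8 in WT and at 41.8 and 206 in cKO. *4930430J02Rik*, a noncoding transcript, had 71.6 and 24.98 in WT and 16.99 and 82.5 in cKO, so its WT libraries were apart as well. *Gm5797*, with 36 near-identical other genes and therefore an uncertain level, had 14.4 and 13.8 in WT and 4.95 and 21.97 in cKO.

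A mean within the limits did not place each library within them. Both cKO libraries were within 0.67 to 1.5 of the WT mean for 69 kept genes, and for 22 they were outside on opposite sides. Over all 14392 genes, whose ratios were not chosen, the counts were 3354 and 580. Taken singly, replicate 1 was within the limits for 106 genes, below for 42 and above for 18, and replicate 2 was within for 107, below for 34 and above for 25. All 4 libraries lay within 2-fold of each other for 93 kept genes and for 4588 of all genes.

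**Figure D3:**
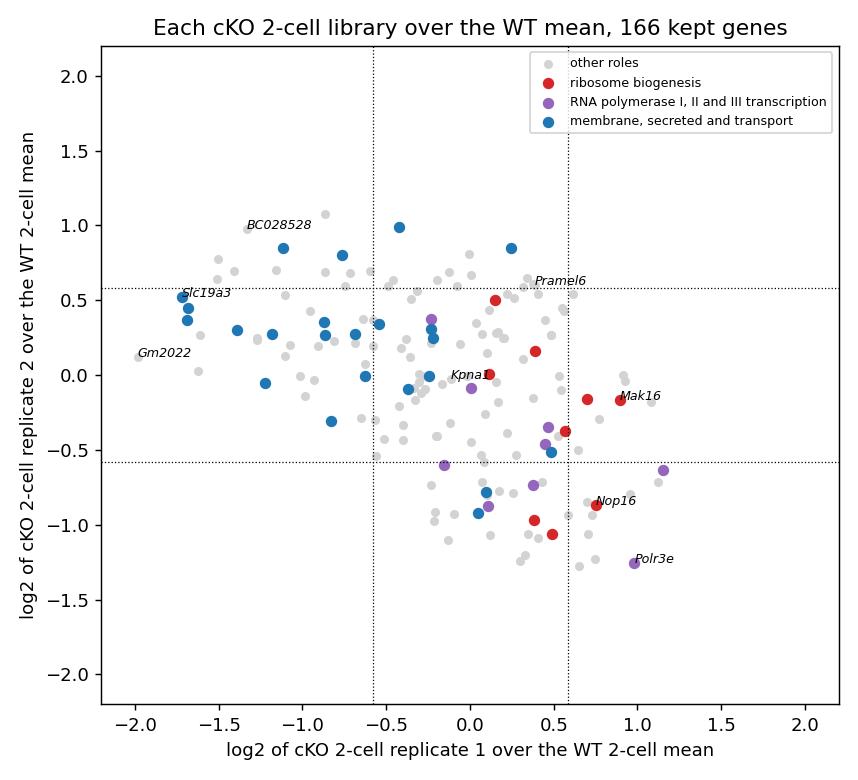
For each of the 166 kept genes, log2 of the cKO 2-cell FPKM over the WT 2-cell mean, with replicate 1 on the horizontal and replicate 2 on the vertical axis, coloured for 3 role classes and with dotted lines at the ratio limits of 0.67 and 1.5. Both libraries fall inside the limits for 69 genes and outside on opposite sides for 22; replicate 1 exceeds replicate 2 for 8 of 9 ribosome biogenesis genes (6 of 9 after median-ratio scaling), and replicate 2 exceeds replicate 1 for 20 of 23 membrane, secreted and transport genes (18 of 23 after scaling to equal sums).

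Transcript length and promoter GC content, which the rule did not use, moved with the difference between the cKO libraries. Across 159 kept genes, the Spearman coefficient of log2 replicate 2 over replicate 1 was -0.406 with the longest transcript length and -0.284 with promoter GC content. With the WT 2-cell mean, which the rule did use, it was 0.111 across 166 genes. Over all genes above the floor in every 2-cell library, the coefficient was -0.289 with length (8811 genes) and -0.193 with GC content (8808 genes). All points share the same 2 libraries, so these are descriptions across genes. Of the 36 kept genes more than 2-fold higher in replicate 2, the 33 with an annotation entry had a median length of 1428 bases and GC content of 53%. The 25 more than 2-fold higher in replicate 1 had 3212 bases and 60.7%. The part of transcript length in the role differences was not tested.

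Between cKO and WT 2-cell embryos, which the rule compared, both cKO libraries were above both WT libraries for 16 kept genes (14.0% of all genes), both below for 15 (43.4% of all genes), and 135 overlapped. limma called 0 kept genes, with 2 upward and 1 downward before adjustment (p under 0.05). Among all genes it called 30.7%, with 1315 upward and 4806 downward before adjustment. For the interaction of genotype and stage it called 0 kept genes, with 0 upward and 1 downward before adjustment. Among all genes it called 11.8%, with 769 upward and 3664 downward before adjustment. The rule fixed the ratio, so nothing is read from the counts of kept genes. They rested on single libraries. The 2-cell counts were 21 higher and 33 lower without cKO replicate 1, 20 and 35 without cKO replicate 2, 1 and 0 without WT replicate 1, and 1 and 3 without WT replicate 2, each lone library being assumed to vary like the other groups. The interaction counts were 6 higher and 24 lower without cKO 2-cell replicate 1, and 9 and 26 without replicate 2.

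The scaling of the libraries moved every ratio. Over 9086 genes with every 2-cell value above 1, log2 of the cKO over the WT mean had a median of -0.31 in the values as given, of 0.16 with median-ratio scaling and of -0.53 with equal sums. The kept genes had medians of -0.03, 0.47 and -0.27 on the same 3 scales. The rule held the ratio of kept genes near 1, so their distance from all genes was set by the choice, and their own median changed sign with the scaling.

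For contrast, 5 genes outside the set were read in the same libraries. The authors had singled them out as lower in cKO 2-cell embryos, so they were chosen for that difference. *Klf10*, a zinc finger repressor gene, was at 30.7 and 32.9 FPKM in WT 2-cell embryos and at 4.11 and 1 in cKO. *Hspa2*, a testis-enriched heat shock protein gene, was at 30.3 and 36.9 in WT and at 5.41 and 5.47 in cKO. *Phlda2*, an imprinted growth regulator gene, was at 174 and 196 in WT and at 59.0 and 46.9 in cKO. In all 3, both cKO libraries lay far below WT. *Ankrd22* was at 91.3 and 82.5 in WT and at 4.44 and 30.2 in cKO, and *Cdk16*, a cyclin-dependent kinase gene, at 103.7 and 93.8 in WT and at 46.0 and 18.9 in cKO. None of the 5 had both WT zygote values at 1, so none could have been a kept gene.

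The fixed gene lists placed the kept genes among the de novo genes of the same pathways, for comparison with the 166 kept of 526. Of 43 listed 2-cell transcripts, 17 were de novo, of which 5 were kept (*Ddit4l*, *Gm13119*, *Gm2022*, *Spz1* and *Ubtfl1*), 10 reduced and 2 lost. *Ddit4l*, an inhibitor gene of mTOR signalling, was at 57.7 and 63.8 in WT and at 30.7 and 55.1 in cKO. *Gm2022* was at 61.5 and 108 in WT and at 21.4 and 92.0 in cKO. Both had cKO means below the WT means. The immediate early and stress response genes were 34, with 7 de novo and 0 kept, 4 being lost (*Junb*, *Ier2*, *Dusp6* and *Plk2*) and 3 reduced. Of 24 epithelial genes, 5 were de novo, with *Epcam* and *Lgals1* kept and *Krt18*, *Cldn6* and *Cldn3* lost. The 27 lineage regulators held 3 de novo genes and the 19 heat shock and chaperone genes held 1, all of them reduced. These counts leave out *Zscan4* and *Zfp* symbols, as the rule did. *Zfp42*, a listed lineage regulator, met the WT conditions and had a ratio inside the limits. *Zscan4a* and *Zscan4f*, listed 2-cell transcripts, also met the WT conditions, and their cKO means were as low as those of lost genes.

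Near the limits of the rule, *Gm2022* was just inside the lower ratio limit at 0.671 and *Hsd17b14* just outside at 0.665. *Gemin5*, an SMN complex gene, was just inside the upper limit at a ratio of 1.498, with 15.7 and 14.5 in WT and 31.9 and 13.3 in cKO, and *AA467197* just outside at 1.504. *Tcf19* was inside the WT minimum at 10.2 and 12.1 FPKM, and *4932414J04Rik* outside at 12.3 and 9.99. Of the *Zscan4* and *Zfp* symbols, 22 met the WT conditions and 8 of these were within the ratio limits, 0 of them *Zscan4* genes.

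Markers of other cells that a pool could hold were read for the whole lists. Of 11 blood cell markers, 4 were in the table and 7 were not listed. Their FPKM sum was 4 in each zygote library, 26.0 and 25.5 in WT 2-cell embryos and 10.00 and 16.2 in cKO 2-cell embryos. The highest over all libraries was *Cd52*, itself a kept gene, at 10.5 and 11.7 in WT and at 4.74 and 10.7 in cKO. The globin genes *Hba-a2* (11.3 and 1.17) and *Hba-a1* (1 and 8.66) were each above 8 in 1 of the WT 2-cell libraries. Of 24 cumulus and granulosa markers, 7 were listed, with sums of 32.7 and 28.8 in WT zygotes, 28.8 in both cKO zygote libraries, 37.6 and 48.7 in WT 2-cell embryos and 25.5 and 24.1 in cKO. The highest in 2-cell embryos was *Amhr2*, which was at the floor in every zygote library, while in zygotes *Cyp19a1* made up most of the sum, at 22.3 to 26.7. Of 18 sperm markers, 10 were listed, with sums of 58.6 and 46.8 in WT and 54.0 and 49.0 in cKO zygotes, and 68.7 and 81.7 in WT and 35.1 and 69.6 in cKO 2-cell embryos. *Odf2* was the highest over all libraries, but *Ldhc*, at 12.6 and 56.9, was above *Odf2*, at 10.8 and 3.94, in cKO 2-cell embryos. The 16 listed oocyte and embryo markers summed to between 23593 and 25799 in zygotes, to 11537 and 9254 in WT and to 7409 and 12093 in cKO 2-cell embryos. *Dppa3* was the highest over all libraries, and *Oosp1* was above it in both WT groups and in cKO zygote replicate 2. The part of other cells in the levels of kept genes was not tested.

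Gene structure was read from GENCODE M1 on the mouse build NCBIM37, the same assembly as mm9. Of the 166 kept genes, 159 had a single entry, 1 had several and 6 had none. The 159 comprised 149 protein-coding genes (93.7%, against 96.0% of all 13775 matched genes), 6 lincRNAs, 3 processed transcripts and 1 pseudogene. The median longest transcript was 2473 bases with 6 exons, compared with 2801 bases and 8 exons over all matched genes and with 1625 bases and 4 exons for the lost genes. Single-exon genes made up 5.66%, such as *Bex6*, *Mgat2*, *Mcts2*, *Rrs1*, *Hpdl* and *Spz1*. The share was 3.39% of all, 10.7% of lost, 11.2% of reduced and 2.27% of raised genes.

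The kept genes were spread over the genome. Of the 159 with a single entry, chromosome 11 held 18 (11.3%, against 8.29% of all matched genes), chromosomes 2 and 7 held 17 each (10.7%, against 7.94% and 7.99%), chromosome 4 held 15 (9.43%, against 6.74%) and chromosome 18 held 0 (against 2.39%). The X chromosome held 3 and the Y chromosome 1. Within 100 kb of another kept gene lay 24, in 12 pairs, among them *Ifitm1* and *Ifitm2*, *Lgals1* and *Lgals2*, *Gm13119* and *Pramel5*, and *Kpna1* and *Parp9*, which are 6145 bases apart. Smart-seq2 does not keep strand, and 45 kept genes shared exon sequence with a gene on the opposite strand and 7 with one on the same strand. Levels of these are uncertain, among them *Mak16*, *Mgat2*, *BC028528*, *Gabpa*, *Nol11*, *Pus1*, *Rprd1b*, *Ifi35*, *Psme1*, *Gart*, *Dnajb14*, *Dhps* and *Cd52*. Such overlap on the opposite strand was found for 45 of 159 kept, 16 of 103 lost, 30 of 152 reduced and 17 of 88 raised genes. Of 149 kept genes with a coding transcript to search, 7 had a near-identical stretch in another gene, *Pnp2* among them.

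Promoters were taken as 250 bases before to 50 bases after the 5′-most gene start in that annotation, for 159 kept genes and 13771 genes in all. Their median GC content was 57% in kept genes and 58.7% over all genes. An observed over expected CpG ratio of at least 0.6 was found in 56.6% of kept, 44.7% of lost, 54.6% of reduced, 58.0% of raised and 61.8% of all promoters. Both strands were searched for 9 motifs, no motif containing another, and a match is a description of the letters only.

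GGATTA, the core bound by OTX and OBOX homeobox proteins, was in 11.3% of kept promoters (18 genes), 4.85% of lost, 11.8% of reduced, 9.09% of raised and 6.82% of all promoters. CCGGAAG, an ETS core, was in 19.5% of kept (31 genes), 9.71% of lost, 8.55% of reduced, 17.05% of raised and 15.8% of all promoters. CCAAT, bound by NFY, was in 32.1% of kept, 45.6% of lost, 44.7% of reduced, 33.0% of raised and 38.9% of all promoters. GGGCGG, the SP/KLF box, was in 58.5% of kept and 56.1% of all promoters, and TATAAA in 11.3% and 8.95%. The E-box CACGTG was in 10.1% of kept (16 genes), 5.83% of lost, 7.24% of reduced, 17.05% of raised and 9.58% of all promoters. AAGGTCA of NR5A2 was in 3.14% and 3.35%, TGACGTCA in 2.52% and 3.02%, and TGAGTCA in 1.26% and 3.64%. No share was tested, and the 4 de novo sets were defined by expression alone.

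In the promoters of the 9 kept ribosome biogenesis genes, CACGTG was found in 4 (*Rrs1*, *Nop2*, *Nol11* and *Rrp12*) and CCGGAAG in 4 (*Rrs1*, *Ddx54*, *Nop2* and *Mak16*). In the 36 promoters of the fixed ribosome list, which include those of 4 kept genes, the shares were 25% and 33.3%. GGGCGG was in 7 of the 9. Stretches around matches in 4 of these and in *Gabpa* are shown so that the distance of each match from the gene start can be compared between genes. Each is given 5′ to 3′ on the strand of the gene in mm9, with 1 motif match in capitals, which for *Gabpa* is the reverse complement. The stretch of *Nop2* also holds its CCGGAAG and that of *Nol11* GGGCGG, both left in lower case. They are *Nol11* on the minus strand at chr11:107050703-107050768, *Nop2* on the plus strand at chr6:125081811-125081876, *Rrp12* on the minus strand at chr19:41970644-41970685, *Mak16* on the minus strand at chr8:32279197-32279257 and *Gabpa* on the plus strand at chr16:84835074-84835140. The match begins 43, 60, 12, 31 and 66 bases before the annotated start.
Nol11: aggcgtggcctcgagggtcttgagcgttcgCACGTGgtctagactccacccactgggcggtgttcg
Nop2: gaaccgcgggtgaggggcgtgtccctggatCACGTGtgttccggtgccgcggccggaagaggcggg
Rrp12: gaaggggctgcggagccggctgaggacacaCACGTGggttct
Mak16: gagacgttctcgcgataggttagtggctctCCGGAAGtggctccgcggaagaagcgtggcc
Gabpa: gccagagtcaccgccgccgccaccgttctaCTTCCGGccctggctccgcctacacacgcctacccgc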

How the data were processed

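RNA-seq libraries of WT and cKO zygotes and 2-cell embryos were grouped by their sample titles, 2 per group. Per the submitters' processing notes and the study's methods, the authors trimmed reads, mapped them to mm9 with TopHat2 2.1.1 and computed FPKM with Cufflinks 2.2.1. In the deposited FPKM table values under 1 were set to 1 and genes never above 1 removed. The gene annotation and any further normalization are not given in the sources used here. FPKM holds no counts, so depth is unknown.

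Members followed the rule given above. The members and gene lists were chosen with earlier results of these data known. limma 3.58.1 (R 4.3.3) was fitted to log2(FPKM + 1) of all 14392 genes, with 4 groups in 1 model, 4 residual degrees of freedom, a trend in the prior and Benjamini-Hochberg adjustment at 0.05, and was tested on simulated data. Fold changes on this scale understate those of low genes. The fold rule was 3-fold between means. Other steps used Python 3.11.15, numpy 2.4.6 and pandas 2.3.3.

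Named genes were *Usp16*, the 12 kept genes highest in WT 2-cell embryos, the 5 highest in cKO zygotes, the 5 with the largest fold between cKO 2-cell libraries, the 5 with the smallest spread over the 2-cell libraries, the genes nearest each limit, members of the fixed lists, and 5 comparison genes that the authors had singled out as lower in cKO 2-cell embryos.

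Promoters were planned from a RefSeq table (build GRCm38.p6). It matched 129 of 166 kept genes (77.7%), too few, so windows were cut from mm9 with GENCODE M1 starts, a choice made after seeing the data. Near-identical copies were transcripts at least 95% identical over 50% of their length. Alternatives covered scaling, pseudocount, type of mean, minimum level, ratio limits, limma settings, the replicate block and leaving out each library.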

Additional observations from a re-analysis of the deposited data

Results flagged for a closer look

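The interaction of genotype and stage in limma, on the log2(FPKM + 1) scale with Benjamini-Hochberg adjustment, called 227 genes higher and 1474 lower (11.8% of all genes). Median-ratio scaling gave 449 higher and 657 lower, and equal sums gave 162 and 1932, so the size of the lean to lower calls depended on the scaling. Among them were *Usp16* and 3 of the comparison genes, and no kept gene. For *Usp16* the cKO minus WT difference was 2.65 larger in 2-cell embryos than in zygotes (SE 0.476, adjusted p = 0.0251), with both cKO libraries below both WT libraries at each stage. For *Klf10* it was -3.53 (SE 0.632, adjusted p = 0.0250), for *Hspa2* -2.73 (SE 0.292, adjusted p = 0.00818) and for *Phlda2* -2.66 (SE 0.293, adjusted p = 0.00835). Leaving out any 1 of the 4 zygote libraries left 0 of the 227 higher calls and only 1 or 2 lower calls over all genes. The whole contrast thus lost nearly all calls, with *Usp16* and at least 1 of *Klf10*, *Hspa2* and *Phlda2* among those lost.

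Among the kept genes, *Usp16* and the comparison genes, every cKO library lay above both WT libraries in zygotes and below both in 2-cell embryos for 3 genes. Other genes of the fixed lists, such as *Id2* and *Bmp15*, also had this order and are not in that count. *Hspa2* had a ratio of cKO to WT means of 1.45 in zygotes and 0.162 in 2-cell embryos, and *Phlda2* 1.87 and 0.286. *Tcta* was the only kept gene with this order. The rule held its WT zygote values at the floor and bounded its 2-cell ratio, so any cKO zygote value off the floor could only lie above WT. Its ratio was 1.16 in zygotes, with 1.27 and 1.06 FPKM in cKO against the floor in WT, and 0.682 in 2-cell embryos, with 8.04 and 8.15 in cKO against 12.1 and 11.7 in WT. The opposite order of *Tcta* in every library drew attention to it without a test of its own, and its interaction did not pass (adjusted p = 0.162). As an order of libraries the difference was not tested for *Hspa2* and *Phlda2* either.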

How the results depend on the processing

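The count of 166 kept genes was 159 to 211 when 1 library was left out, and 188 after median-ratio scaling (87 of the 166 among them), 193 after scaling to equal sums (138), 167 with geometric means (156) and 176 with 1 added (166). It moved to 315 with a WT 2-cell minimum of 5, 87 with a minimum of 20, 287 with ratio limits of 0.5 to 2, and 43 when each cKO library had to be within the limits of each WT library. Above the floor in both cKO zygote libraries were 9 kept genes, 2 after median-ratio scaling, 0 at a floor of 2, 27 in at least 1 library, and 9 to 22 when 1 library was left out.

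limma called 0 kept genes between zygotes under every alternative, and 147 to 166 from cKO zygotes to 2-cell embryos. The rule had fixed the WT zygote values, so nothing is read from the zygote count. Between cKO and WT 2-cell embryos the 0 higher became 4 without a trend, 12 after median-ratio scaling and 0 to 21 when 1 library was left out. The 0 lower became 1 without a trend, 4 after scaling to equal sums and 0 to 35 when 1 library was left out. The interaction gave 1 higher after median-ratio scaling, and 0 to 9 higher and 0 to 26 lower when 1 library was left out. A fit of only 4 libraries was not run for it, since it needs all groups. Over all genes the 2-cell split was 887 higher and 3538 lower, 1437 and 1747 after median-ratio scaling, and 551 and 4065 after scaling to equal sums. The fit of only the 4 2-cell libraries called 0 genes. More than 2-fold apart between the cKO 2-cell libraries were 61, against 24 at 3-fold. Beyond the settings themselves, the cause of these moves was not tested.

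Nothing in the sources ties same-numbered libraries of different groups beyond the number. Deviations of same-numbered WT and cKO libraries correlated at 0.497 across genes in zygotes and at -0.239 in 2-cell embryos. A model blocked on that number called 0 kept genes in zygotes, 166 for the stage, 0 in 2-cell embryos and 0 for the interaction (117 higher and 1017 lower over all genes), and 63 genes had both same-numbered ratios within the limits. With the 2-cell pairs crossed, a choice made after seeing the data, 61 did and limma called the same counts of kept genes. Of the 37 named kept genes, 27 were within the limits after median-ratio scaling, 31 after scaling to equal sums, 32 with geometric means and 37 with 1 added. Leaving out a cKO 2-cell library kept 45 of 74 of their ratios within the limits, and a WT 2-cell library 67 of 74. Among 9 motifs the RefSeq promoters of kept genes differed most, as a ratio, for AAGGTCA (6.20% instead of 3.14%) and TGAGTCA (3.88% instead of 1.26%), both in few genes. Shares over all genes moved too. With RefSeq promoters CCGGAAG was in 18.6% of kept and 18.0% of all matched genes, instead of 19.5% and 15.8%. CCAAT was in 33.3% and 43.6%, instead of 32.1% and 38.9%. With FPKM alone, what depth limits near the floor cannot be given.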
